A study of Mus musculus with 10 samples.

Results

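The genes described here encode the nuclear part of the oxidative phosphorylation machinery. They were chosen by symbol as the protein-coding genes of the GENCODE M21 annotation named Nduf followed by a, b, c, s or v, the genes Sdha to Sdhd, Cyc1, and the genes with names starting Uqcr, Cox4 to Cox8 or Atp5. The rule took 95 of the 55494 genes that the files hold. By complex these were 7 core and 31 accessory genes of complex I, 8 complex I assembly factors (Ndufaf), 4 genes of complex II, 9 of complex III, 18 of complex IV and 18 of complex V. The rule reads names, so it also takes the assembly factors and Atp5s, a coupling factor that is not a structural subunit. It counts Ndufa4 with complex I, although the protein is known as a subunit of complex IV, and it counts Cox7a2l, a factor of respiratory supercomplexes, with complex IV.

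Complexes I and II take electrons from NADH and succinate, complex III passes them by way of ubiquinone and cytochrome c, and complex IV hands them to oxygen. The protons that complexes I, III and IV move across the inner mitochondrial membrane drive complex V, the ATP synthase. Most subunits are encoded in the nucleus and a few in the mitochondrial genome, and both kinds are needed for every complex but complex II, whose subunits are all nuclear.

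RNA was sequenced from leukemia initiating cells that a flow cytometer sorted out of the spleens of mouse pups with the RFP/RET transgene (Eμ-Ret). Per the series' design text, 5 pups had been given 20 µg of Poly(A:U), which is double-stranded RNA made by synthesis, and 5 pups 50 µl of PBS. All 10 pups carried the transgene, which the Eμ immunoglobulin enhancer drives in B lineage cells, and all were 13 days old when cells were taken 7 days after treatment. No group without the transgene was analysed here, and the comparison asks what Poly(A:U) does to such cells.

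The libraries held 17849707 to 22572180 estimated reads assigned to genes. All 12 B cell precursor markers looked up passed the filter on low counts, and their summed level was 10522 to 12096 CPM (the estimated reads of a gene scaled to a fixed library total) in Poly(A:U) libraries and 8591 to 13531 CPM in PBS libraries. Libraries are numbered within each group, and PBS 4 stood apart. It had the lowest B cell precursor sum, 175 CPM of T cell markers against 11.6 to 21.9 CPM in the other 9 libraries, and 260.3 CPM of brown fat, heart and muscle markers against 3.86 to 23.1 CPM in the other 9. A few genes made up these sums. In PBS 4 Trbc1 had 81.9 and Cd3e 53.9 CPM, while the T cell markers Cd3d and Cd8a had 0.147 CPM each. The muscle actins Acta1 and Actc1 had 176 and 80.04 CPM in PBS 4, with Ckm and Tnni3, defining genes of skeletal and heart muscle, at 0. The next highest library for these 4 genes was Poly(A:U) 5, with 4.26 CPM of Trbc1, 2.97 CPM of Cd3e, 14.4 CPM of Acta1 and 5.98 CPM of Actc1. The names of the deposited libraries share a part between Poly(A:U) 5 and PBS 4 and another between Poly(A:U) 1 and PBS 5. PBS 1, 2 and 3 share a part that no Poly(A:U) library has, and Poly(A:U) 3 and 4 share one that no PBS library has. What these parts stand for is not given in the sources used here. Ucp1, the defining gene of brown fat, was at 0 in all 10 libraries. Summed neutrophil markers ran from 31.5 to 276 CPM in Poly(A:U) and from 51.9 to 1103 CPM in PBS libraries. Macrophage markers ran from 40.7 to 61.3 CPM and from 43.1 to 194 CPM. Erythroid markers ran from 1554 to 12618 CPM and from 304 to 12110 CPM. PBS 1, 2 and 3 had the highest neutrophil sums (738, 1103 and 935 CPM), against 53.5 and 51.9 CPM in PBS 4 and 5. They also had the lowest erythroid sums (304, 608 and 487 CPM), against 2673 and 12110 CPM in PBS 4 and 5. The filter passed 8 of 11 neutrophil, 9 of 10 macrophage, 4 of 10 T cell, all 11 erythroid (those matched by symbol) and 1 of 8 brown fat, heart and muscle markers.

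The 95 genes together took about 1.03% of the reads. Levels were compared between genes per unit of transcript length, as TPM, the deposited measure that scales reads by transcript length, summed over the transcripts of a gene, with the mean and SD over the 10 libraries. Atp5b, the catalytic beta subunit of ATP synthase, was highest with 1152 ± 64.1 TPM, and its lowest library (1045 TPM) exceeded the highest library of the next gene, Atp5e (836 TPM). Atp5e, the epsilon subunit, had 704 ± 79.0 TPM, Cox8a 669 ± 62.4 TPM, Cox6a1 657 ± 55.0 TPM and Cox4i1 655 ± 62.4 TPM. These 4 differed from each other by less than their SD over libraries. Uqcrh, the hinge protein of complex III, followed with 590.1 ± 61.9 TPM, and Atp5a1, the alpha subunit of ATP synthase, with 582 ± 48.6 TPM. Atp5b depends on the transcripts counted, since 42.4% of its TPM lay in transcripts not annotated as protein-coding. Over protein-coding transcripts alone it had 664 TPM, below Atp5e (690.4 TPM) and Cox8a (669 TPM).

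By class, the median level of the tested genes was 118 TPM for complex I core subunits, 156 TPM for complex I accessory subunits, 133 TPM for complex II, 253 TPM for complex III, 451 TPM for complex IV and 342 TPM for complex V. The assembly factors stood lowest with a median of 17.3 TPM, near the median of 15.3 TPM over all 13729 genes tested. Among the core subunits of complex I, which carry the flavin, the iron-sulfur clusters and the ubiquinone site, Ndufs8 had 189.8 ± 11.3 TPM and Ndufs1, the largest of them, 50.1 ± 7.09 TPM. Within complex II, Sdhb and Sdhd were close at 147 ± 11.6 and 148 ± 14.1 TPM, and Sdha and Sdhc at 119 ± 15.6 and 117 ± 10.4 TPM. Of the assembly factors, Ndufaf3 was highest with 56.5 ± 4.51 TPM and Ndufaf5 lowest with 11.8 ± 1.07 TPM. The lowest tested genes of the whole list were Cox7a1 with 7.69 ± 3.13 TPM, Cox6b2 with 7.20 ± 2.14 TPM and Atp5s with 5.67 ± 1.69 TPM.

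**Figure D1:**
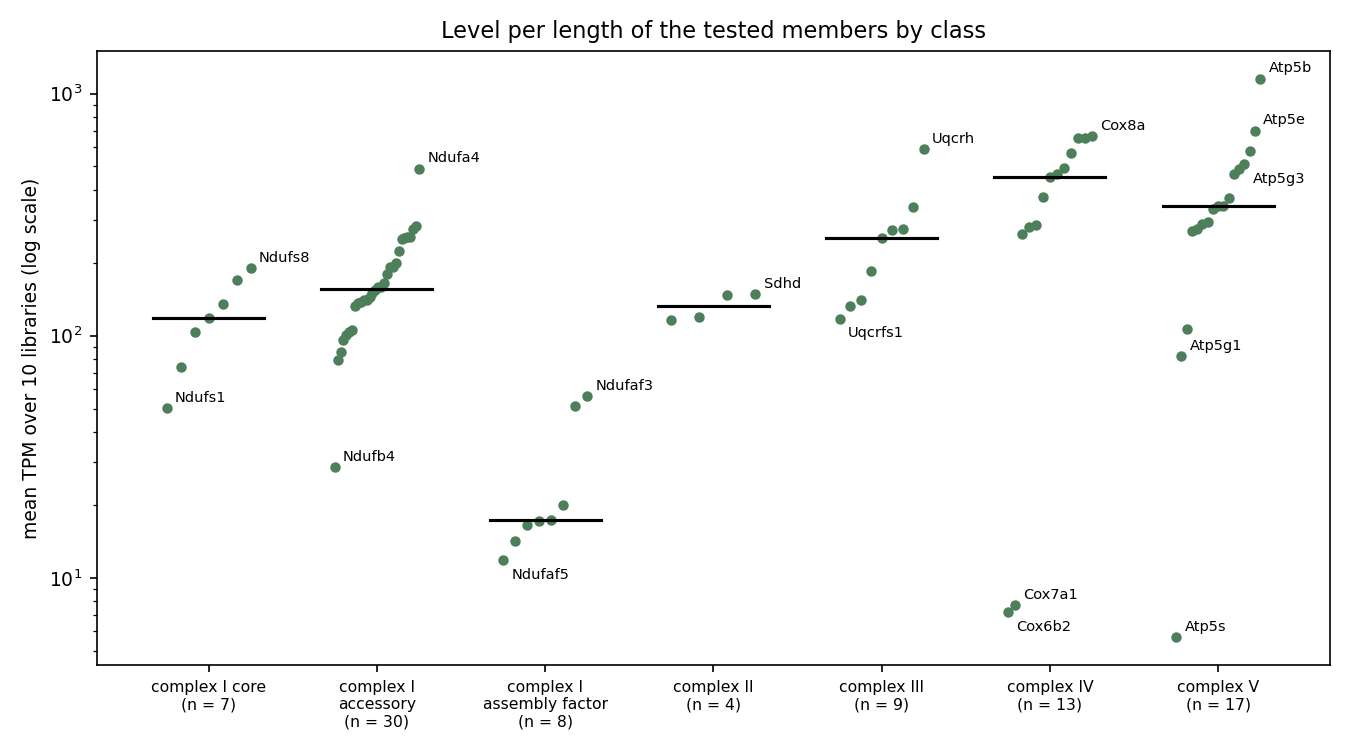
Mean level per length of the 88 tested genes over the 10 libraries, in TPM on a log axis, by class; each point is a gene and each bar the median of its class. Complexes IV (median 451 TPM) and V (342 TPM) stand highest, the assembly factors (17.3 TPM) lowest, and Cox7a1, Cox6b2 and Atp5s lie far under their classes.

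Complex IV is built with tissue-specific subunit isoforms, and in these libraries the forms known from most tissues took nearly all of the signal. Cox8a held 100% of the TPM of its family, with 0 reads in every library for the muscle form Cox8b and the testis form Cox8c. Cox7b2, a testis form of Cox7b, was also at 0 in every library. A count of 0 allows up to 3 reads, or 0.133 to 0.168 CPM depending on the library. The heart and muscle form Cox6a2 had at most 18 reads in any library and Cox6a1 at least 99.65% of the family's TPM. Cox4i2, the form known from lung and from low oxygen, had at most 6 reads and Cox4i1 at least 99.9% of the TPM. The testis form Cox6b2 took 1.22% ± 0.24 of the Cox6b TPM in Poly(A:U) and 1.28% ± 0.48 in PBS libraries (SD, n = 5 each). The heart and muscle form Cox7a1 took 0.910% ± 0.444 of the Cox7a TPM in Poly(A:U) and 1.04% ± 0.290 in PBS libraries.

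In the Cox7a family Cox7a2 held 38.0% ± 2.95 of the TPM in Poly(A:U) and 35.3% ± 3.57 in PBS libraries, and Cox7a2l 61.1% ± 3.25 and 63.7% ± 3.71. The 3 genes for the c subunit of the ATP synthase rotor encode the same mature protein. Atp5g3 held 72.1% ± 3.20 of their TPM in Poly(A:U) and 73.8% ± 1.78 in PBS libraries, Atp5g2 15.96% ± 2.01 and 14.5% ± 1.54, and Atp5g1 11.9% ± 1.21 and 11.6% ± 1.18. In each of these families the group means differed by less than the SD over the 5 libraries of either group, and these shares were given as a description with no test. Ndufa4l2, the paralog of Ndufa4 known to be induced by low oxygen, had at most 2 reads in any library.

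The promoters of 4 such pairs are shown because each pair holds an abundant form and one that is scarce or at 0. Each line gives 250 bases before to 50 bases after the start of the gene from RefSeq, build GRCm38.p6, 5′ to 3′ on the gene's strand, with CG dinucleotides in capitals. Cox8a lies at chr19:7217567-7217866 (minus strand), Cox8b at chr7:140900397-140900696 (minus), Cox6b1 at chr7:30626065-30626364 (minus), Cox6b2 at chr7:4753045-4753344 (minus), Cox7a2 at chr9:79759804-79760103 (minus), Cox7a1 at chr7:30183921-30184220 (plus), Cox7b at chrX:106015450-106015749 (plus) and Cox7b2 at chr5:71548156-71548455 (minus).
Cox8a: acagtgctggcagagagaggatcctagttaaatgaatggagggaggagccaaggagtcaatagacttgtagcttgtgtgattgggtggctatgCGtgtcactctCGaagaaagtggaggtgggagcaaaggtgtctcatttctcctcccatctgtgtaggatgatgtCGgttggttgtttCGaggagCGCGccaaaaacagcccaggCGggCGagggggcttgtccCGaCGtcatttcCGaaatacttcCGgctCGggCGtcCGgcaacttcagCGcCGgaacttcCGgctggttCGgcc
Cox8b: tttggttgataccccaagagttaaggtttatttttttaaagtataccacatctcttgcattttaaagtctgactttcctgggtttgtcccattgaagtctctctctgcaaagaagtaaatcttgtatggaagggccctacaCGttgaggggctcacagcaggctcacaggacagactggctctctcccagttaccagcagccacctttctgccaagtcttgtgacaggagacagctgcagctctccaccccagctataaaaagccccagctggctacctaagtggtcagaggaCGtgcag
Cox6b1: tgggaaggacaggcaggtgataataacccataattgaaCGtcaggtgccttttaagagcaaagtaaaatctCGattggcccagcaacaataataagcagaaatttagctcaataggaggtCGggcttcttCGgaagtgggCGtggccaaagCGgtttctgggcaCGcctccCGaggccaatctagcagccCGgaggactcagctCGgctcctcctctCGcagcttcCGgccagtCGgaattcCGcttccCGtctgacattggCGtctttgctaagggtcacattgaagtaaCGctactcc
Cox6b2: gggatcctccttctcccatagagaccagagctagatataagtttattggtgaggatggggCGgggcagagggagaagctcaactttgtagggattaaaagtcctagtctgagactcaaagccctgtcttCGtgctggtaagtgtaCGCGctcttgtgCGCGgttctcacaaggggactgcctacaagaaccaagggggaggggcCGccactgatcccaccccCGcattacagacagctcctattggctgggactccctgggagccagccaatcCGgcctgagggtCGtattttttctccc
Cox7a2: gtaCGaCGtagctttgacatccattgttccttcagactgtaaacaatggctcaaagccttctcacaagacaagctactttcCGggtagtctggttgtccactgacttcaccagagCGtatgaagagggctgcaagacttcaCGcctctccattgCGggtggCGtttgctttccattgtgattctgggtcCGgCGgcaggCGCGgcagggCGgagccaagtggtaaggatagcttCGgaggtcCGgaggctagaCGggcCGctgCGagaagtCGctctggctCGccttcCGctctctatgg
Cox7a1: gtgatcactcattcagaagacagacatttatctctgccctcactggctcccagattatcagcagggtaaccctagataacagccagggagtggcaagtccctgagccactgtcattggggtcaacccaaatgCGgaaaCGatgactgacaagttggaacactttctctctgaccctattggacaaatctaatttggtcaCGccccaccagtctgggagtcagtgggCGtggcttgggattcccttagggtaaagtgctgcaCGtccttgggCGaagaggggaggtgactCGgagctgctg
Cox7b: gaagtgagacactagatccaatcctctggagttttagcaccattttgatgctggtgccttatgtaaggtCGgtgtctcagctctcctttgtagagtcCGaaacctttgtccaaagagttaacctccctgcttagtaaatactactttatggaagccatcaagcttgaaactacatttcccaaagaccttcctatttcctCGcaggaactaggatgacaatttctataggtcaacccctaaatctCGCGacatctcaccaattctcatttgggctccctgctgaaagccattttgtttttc
Cox7b2: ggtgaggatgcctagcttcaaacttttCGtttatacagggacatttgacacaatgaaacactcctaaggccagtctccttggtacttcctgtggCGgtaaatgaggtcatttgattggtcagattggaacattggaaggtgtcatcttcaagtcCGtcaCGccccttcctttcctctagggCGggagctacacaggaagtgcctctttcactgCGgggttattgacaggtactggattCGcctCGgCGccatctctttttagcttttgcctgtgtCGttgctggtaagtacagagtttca
The abundant forms Cox8a, Cox6b1 and Cox7a2 held 19, 17 and 20 CG dinucleotides in these windows, and the scarce forms Cox8b, Cox6b2 and Cox7a1 2, 10 and 7. Relative to the number that base composition gives, the ratio was 0.842 for Cox8a, 0.807 for Cox6b1 and 0.833 for Cox7a2, and 0.115 for Cox8b, 0.432 for Cox6b2 and 0.333 for Cox7a1. The Cox7b pair went the other way, with 5 CG dinucleotides and a ratio of 0.368 for the abundant Cox7b (262 TPM), and 10 and 0.564 for Cox7b2, which was at 0. The ETS letters CCGGAAG or their reverse complement start 5 bases before (-5) and at 32 after the start of Cox8a, and at -28 in Cox6b1, and occur in none of the other 6 windows. The pairs were chosen after their levels were known.

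RefSeq windows were matched for 76 of the 95 genes, and 79 windows belonged to 74 tested genes. Their median CG ratio was 0.833, against 0.754 over 12026 windows of all tested genes and 0.384 over all 32851 windows. Both strands were searched for the letters of sites linked to respiratory chain genes. TGCGCA, the core of the site of the factor NRF1, stood in 20 of 79 windows (25.3%), against 13.9% of the windows of tested genes and 7.76% of all windows. AAGATGG, the core of the YY1 site, stood in 12 windows (15.2%), against 7.21% and 6.34%. CCGGAAG, an ETS site, stood in 18 windows (22.8%), against 18.1% and 8.86%, and the E box CACGTG in 7 (8.86%), against 10.03% and 7.15%. Such matches describe letters in a window and not binding.

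The comparison of Poly(A:U) with PBS libraries called none of these genes. 88 of the 95 passed the filter on low counts, and 0 of 88 had an adjusted p under 0.05 in edgeR's quasi-likelihood test, with a background of 0% of the 13729 genes tested. The smallest adjusted p of a member was 0.677. At an unadjusted p under 0.05 there were 2, Atp5s and Ndufaf4, both with a positive log2 fold change (Poly(A:U) minus PBS), where the background was 4.11% in that direction and 7.3% in either. DESeq2 called 0 of the 88 (background 0.0947%), and limma voom with quality weights 0 of the 88 (background 6.34%), with a smallest adjusted p of 0.0542. In no member did the 2 groups separate without overlap in CPM, with a background of 0.947%. The 7 genes that were not tested are Cox8b, Cox8c, Cox7b2 and a second Atp5o gene entry, at 0 in every library, and Cox4i2, Cox6a2 and Ndufa4l2.

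The intervals bound the size of a difference within the fit that has treatment as its only term. They do not take in the name parts that some libraries share. For 83 of the 88 (94.3%) the 95% interval of the fold change lay inside 1.5-fold in either direction, against 64.3% of all genes tested and 88.3% of those averaging 10 CPM or more. The other 5 were Atp5s, Ndufaf4, Ndufaf2, Cox6b2 and Cox7a1, with 5.67 to 17.2 TPM. Ndufaf5 (11.8 TPM) and Ndufaf6 (14.1 TPM) lay inside the bound. 66 of the 88 (75%) had a positive log2 fold change, against 49.4% of all genes tested. The median was 0.06 for the tested members and -0.00 for all genes tested. In bulk RNA, fewer cells of a type and less RNA per cell cannot be told apart.

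**Figure D2:**
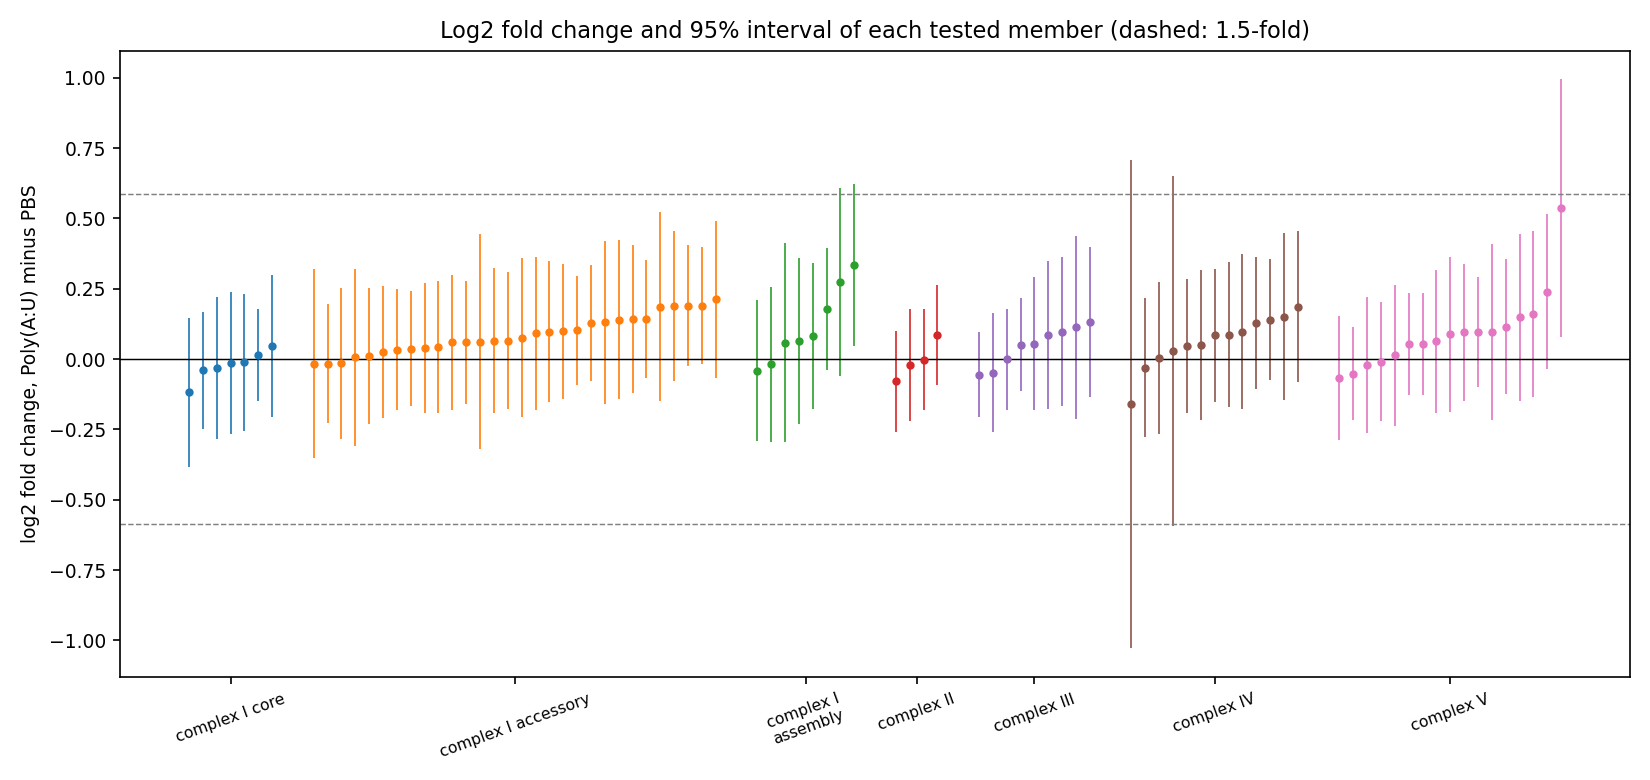
Log2 fold change, Poly(A:U) minus PBS, of each tested gene by class, with its 95% interval from edgeR's fit (5 libraries a group) and dashed lines at 1.5-fold in either direction. Most points lie just above 0 (66 of 88), and 83 of the 88 intervals lie between the dashed lines.

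The core subunits of complex I showed no common direction, with 2 of 7 log2 fold changes positive and a median of -0.02. Ndufv1, the subunit that binds NADH and flavin (chromosome 19, mm10, positions 4007384 to 4012806), had 83.1, 82.0, 74.5, 75.3 and 69.8 CPM in the Poly(A:U) libraries and 77.1, 73.1, 78.6, 108 and 73.1 CPM in the PBS libraries. The groups overlapped, and the highest value was that of PBS 4. Its log2 fold change was -0.12 ± 0.12 (SE), for which edgeR's adjusted p was 0.801, and without PBS 4 it was 0.012. Ndufs1 had 77.3, 66.0, 88.0, 98.1 and 86.3 CPM in Poly(A:U) and 96.1, 79.5, 86.8, 77.6 and 78.6 CPM in PBS libraries, with overlapping groups and a log2 fold change of -0.04 ± 0.10. The other 5 core subunits lay between -0.03 ± 0.12 for Ndufs8 and 0.04 ± 0.12 for Ndufv2.

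The accessory subunits of complex I, which surround the core and are needed for its assembly and stability, gave 27 of 30 positive log2 fold changes, with a median of 0.07 and none called. Ndufa1, a small membrane subunit encoded on the X chromosome, had 32.5, 38.2, 40.1, 35.3 and 31.2 CPM in Poly(A:U) and 30.4, 33.4, 31.1, 28.7 and 29.2 CPM in PBS libraries. Here 3 of the Poly(A:U) libraries lay above the PBS range and the other 2 within it, and the log2 fold change was 0.19 ± 0.10 (edgeR adjusted p = 0.695). Ndufc2 had 65.4, 70.7, 67.3, 70.6 and 52.1 CPM in Poly(A:U) and 54.4, 61.1, 55.6, 54.2 and 56.1 CPM in PBS libraries. In this gene 4 Poly(A:U) libraries lay above the PBS range and Poly(A:U) 5 below it, which gave 0.19 ± 0.10 (edgeR adjusted p = 0.695). The range of the class ran from -0.02 ± 0.16 for Ndufv3 to 0.21 ± 0.13 for Ndufa2. Ndufb4 (28.7 ± 5.95 TPM, the lowest accessory subunit) is uncertain, because a processed pseudogene of the same name, Ndufb4c, held 25.2 to 38.0 CPM, against 10.98 to 18.7 CPM for Ndufb4, and how reads of near-identical copies were assigned is not given in the sources used here. Ndufa4 had 151 to 179 CPM in the first 4 Poly(A:U) libraries, 138 CPM in Poly(A:U) 5 and 135 to 168 CPM in PBS libraries (0.04 ± 0.09).

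The 8 complex I assembly factors, which help build the complex and are not part of it, gave 6 positive log2 fold changes and a median of 0.07. Ndufaf4 (chromosome 4, 24898083 to 24905001) had 22.2, 24.2, 21.8, 28.2 and 22.2 CPM in Poly(A:U) and 14.0, 17.7, 17.9, 21.8 and 20.9 CPM in PBS libraries. The groups met near 21.8 CPM, and the log2 fold change was 0.33 ± 0.13 (unadjusted p = 0.0262, adjusted p = 0.677 in edgeR's test). Of its TPM, 68.3% lay in a transcript annotated as a processed transcript, so most of its TPM is not that of a coding transcript. Ndufaf2 had 8.69, 7.58, 8.19, 8.35 and 5.57 CPM in Poly(A:U) and 6.11, 6.33, 5.86, 6.59 and 6.32 CPM in PBS libraries. As in Ndufc2, 4 Poly(A:U) libraries lay above the PBS range and Poly(A:U) 5 below it, and the log2 fold change was 0.27 ± 0.15 (edgeR adjusted p = 0.695). Summed over the 8 genes, the same 4 Poly(A:U) libraries had 131 to 143 CPM and Poly(A:U) 5 had 109.8 CPM, against 111 to 125 CPM in PBS libraries.

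Complex II, which is also an enzyme of the citric acid cycle, had nearly equal sums in both groups. Its 4 genes summed to 525 to 604 CPM in Poly(A:U) and 521 to 585 CPM in PBS libraries, a ratio of means of 1.00. Sdha, the flavoprotein, had 235, 186, 216, 248 and 244 CPM in Poly(A:U) and 258, 229, 232, 233 and 216 CPM in PBS libraries (-0.08 ± 0.08). Sdhc, a membrane anchor, had 93.8, 100.4, 96.3, 95.6 and 81.2 CPM in Poly(A:U) and 84.9, 89.96, 87.7, 87.3 and 83.6 CPM in PBS libraries (0.08 ± 0.08). These 2 had the smallest unadjusted p of the class and differed in sign, with overlapping groups in both. Sdhb, the iron-sulfur subunit, gave -0.02 ± 0.09 and Sdhd, the other anchor, -0.00 ± 0.08.

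The log2 fold change was above 0 for 6 of the 9 complex III genes, and its median was 0.05. The members with a catalytic or structural core role gave values from -0.06 to 0.05. They also had long transcripts (mean effective lengths of 1042 to 1554 bases), so role and length cannot be told apart here. The cytochrome c1 gene Cyc1 gave -0.00 ± 0.08, the Rieske iron-sulfur gene Uqcrfs1 0.05 ± 0.08, and the core protein genes Uqcrc1 and Uqcrc2 -0.05 ± 0.10 and -0.06 ± 0.07. The largest value was that of Uqcrh, with 196, 229, 212, 202 and 150.4 CPM in Poly(A:U) and 168, 199.9, 195, 155 and 172 CPM in PBS libraries, overlapping groups and a log2 fold change of 0.13 ± 0.12. Uqcrq, a small subunit, had 88.0, 98.9, 92.2, 100.3 and 64.6 CPM in Poly(A:U) and 74.7, 90.6, 82.5, 81.5 and 79.0 CPM in PBS libraries (0.10 ± 0.12). In both genes Poly(A:U) 5 was the lowest of the 10 libraries.

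In complex IV the log2 fold change was above 0 for 11 of the 13 tested genes (median 0.08). Cox6c, a small subunit of the outer ring, had 134, 179.8, 164, 154 and 123 CPM in Poly(A:U) and 115, 153, 137, 125 and 123 CPM in PBS libraries. The groups overlapped, and the log2 fold change was 0.19 ± 0.12 (edgeR adjusted p = 0.71). Cox7a2 had 106, 117, 119, 119.8 and 95.4 CPM in Poly(A:U) and 89.7, 114, 101, 102 and 90.3 CPM in PBS libraries (0.14 ± 0.10). The abundant forms Cox8a and Cox4i1 gave 0.00 ± 0.12 and 0.10 ± 0.13. Cox7a1 (0.557 to 2.35 CPM in Poly(A:U), 1.17 to 2.58 CPM in PBS) and Cox6b2 (1.68 to 2.56 and 1.17 to 3.25 CPM) varied most over the 10 libraries, and the 95% intervals of their log2 fold changes ran from -1.03 to 0.71 and from -0.59 to 0.65.

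Complex V gave 13 values above 0 among its 17 tested genes (median log2 fold change 0.09). Within the catalytic head, Atp5b and Atp5a1 gave values near 0. Both also had long transcripts (mean effective lengths of 1168 and 1921 bases), so role and length cannot be told apart here. Atp5b had 1082, 878, 1022, 1178 and 1011 CPM in Poly(A:U) and 1057, 1001, 1021, 1242 and 985 CPM in PBS libraries (-0.07 ± 0.10), and Atp5a1 799 to 935 CPM and 844 to 914 CPM (-0.05 ± 0.08). Atp5k, the e subunit that sits in the membrane part, had 63.9, 81.9, 82.1, 75.2 and 54.8 CPM in Poly(A:U) and 54.1, 69.1, 62.0, 57.5 and 55.9 CPM in PBS libraries, with 3 Poly(A:U) libraries above the PBS range and 0.24 ± 0.13 (edgeR adjusted p = 0.695). Atp5s (chromosome 12, 69724950 to 69744660) had 4.63, 4.56, 4.35, 4.20 and 3.10 CPM in Poly(A:U) and 2.35, 3.02, 3.52, 2.16 and 3.11 CPM in PBS libraries. Its first 4 Poly(A:U) libraries lay above all PBS libraries and Poly(A:U) 5 within them, and its log2 fold change of 0.54 ± 0.21 was the largest of the list (unadjusted p = 0.0255, adjusted p = 0.677 in edgeR's test).

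Summed over all 95 genes, the Poly(A:U) libraries had 10561, 11053, 10901, 11278 and 8950 CPM, a mean of 10549 ± 931, and the PBS libraries 9758, 10587, 10420, 10328 and 9640 CPM, a mean of 10147 ± 421 (SD, n = 5 each). The ratio of means was 1.04, less than the spread between libraries. Of the Poly(A:U) libraries 3 lay above the PBS range, 1 within it and Poly(A:U) 5 below it. Complex III had 1115, 1176, 1134, 1168 and 906 CPM in Poly(A:U) and 1013, 1109, 1090, 1063 and 1007 CPM in PBS libraries, so that 4 Poly(A:U) libraries lay above the PBS range and Poly(A:U) 5 below it. Complex I, complex IV and complex V also had Poly(A:U) 5 below all PBS libraries, and complex II did not. With TMM factors 2 Poly(A:U) libraries lay above the PBS range for complex III and 2 for all genes together. For complex IV 1 lay above it with TMM factors and 3 without, for complex V 0 and 1, and for complex I 3 both ways. With these factors Poly(A:U) 5 lay below the PBS range for complex II as well (512 CPM, PBS 521 to 583 CPM). In TPM, where each library is scaled by transcript length, Poly(A:U) 5 was within the PBS range for the sum (19652 TPM, PBS 19113 to 21929 TPM).

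**Figure D3:**
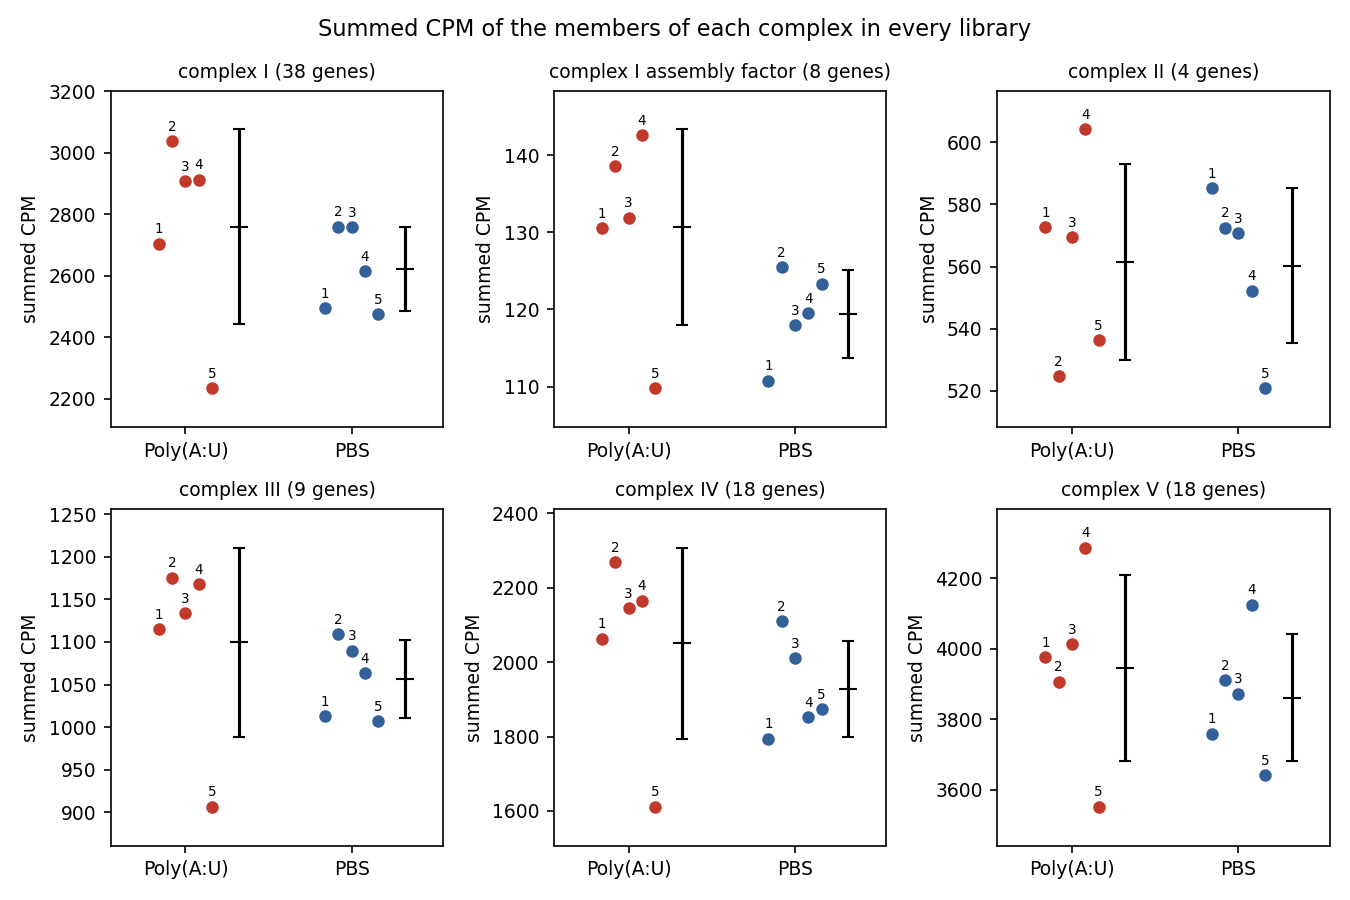
Summed CPM of the genes of each complex in the 5 Poly(A:U) and 5 PBS libraries, numbered by library, with the mean and SD beside each group; each vertical axis has its own range and does not start at 0. Poly(A:U) 5 lies below the PBS range in every panel but that of complex II, and in the panels of the assembly factors and complex III the other 4 Poly(A:U) libraries lie above it.

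The same libraries gave the lowest and the highest values for most genes of the list. On the scale of log2 CPM with TMM factors, Poly(A:U) 5 was the lowest of the 10 libraries for 71 of the 88 tested genes (80.7%), against 18.4% of all genes tested, and Poly(A:U) 2 was the highest for 58 (65.9%), against 16.7%. In Poly(A:U) 5 the deviation from a gene's mean ran from -0.54 for Ndufb7 and -0.53 for Uqcr11 to 0.03 for Sdha and 0.03 for Ndufaf4. In Poly(A:U) 2 it ran from -0.27 for Ndufs1 and -0.24 for Sdha to 0.49 for Atp5e and 0.50 for Uqcr11. The genes at the 2 ends of these ranges differ in transcript length, with mean effective lengths of 295 bases for Uqcr11, 277 bases for Atp5e, 491 bases for Ndufb7, 2147 bases for Ndufs1 and 2475 bases for Sdha.

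Genes averaging 5 CPM or more were therefore split by effective length, a split made after the pattern was seen. In Poly(A:U) 5 the 48 members under 600 bases had a median deviation of -0.36 and the 652 other genes of that length -0.32, whereas the 20 members of 1000 bases or more had -0.21 and the 8650 other genes 0.04. In Poly(A:U) 2 these medians were 0.29 and 0.28 for the short and 0.03 and -0.04 for the long genes. Short members and other short genes thus had nearly the same medians in both libraries, and in Poly(A:U) 5 the long members lay below the other long genes. In PBS 1 the short members and other short genes both had a median of -0.16. Their medians were also close in Poly(A:U) 1 (0.03 for both) and PBS 3 (0.02 and 0.01). They lay further apart in Poly(A:U) 3 (0.10 and 0.03), Poly(A:U) 4 (0.12 and 0.05), PBS 2 (0.10 and 0.04) and PBS 5 (-0.13 and -0.06). In PBS 4 they differed in sign (-0.03 and 0.06). In Poly(A:U) 4 the long members had 0.12 and the other long genes 0.01. Of the short members 45 of 48 had a positive log2 fold change (median 0.10), against 57.7% of the other short genes (median 0.02), and of the long members 9 of 20 (median -0.00), against 48.8% of the other long genes (median -0.00).

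Both libraries also differed in other measures. The 13 coding genes of the mitochondrial genome took 28825 CPM in Poly(A:U) 5 and 53394 CPM in Poly(A:U) 2, against 27745 to 39738 CPM in the other 3 Poly(A:U) libraries and 32273 to 43586 CPM in PBS libraries. Summed erythroid markers were 1554 CPM in Poly(A:U) 5 and 12618 CPM in Poly(A:U) 2, and PBS 5, with 12110 CPM of them, had 9640 CPM of the nuclear oxidative phosphorylation genes, the lowest sum of the PBS group. Neutrophil markers in Poly(A:U) 5 (31.5 CPM) were close to those in Poly(A:U) 1 (31.8 CPM). The part of these measures in the level of the list was not tested.

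**Figure D4:**
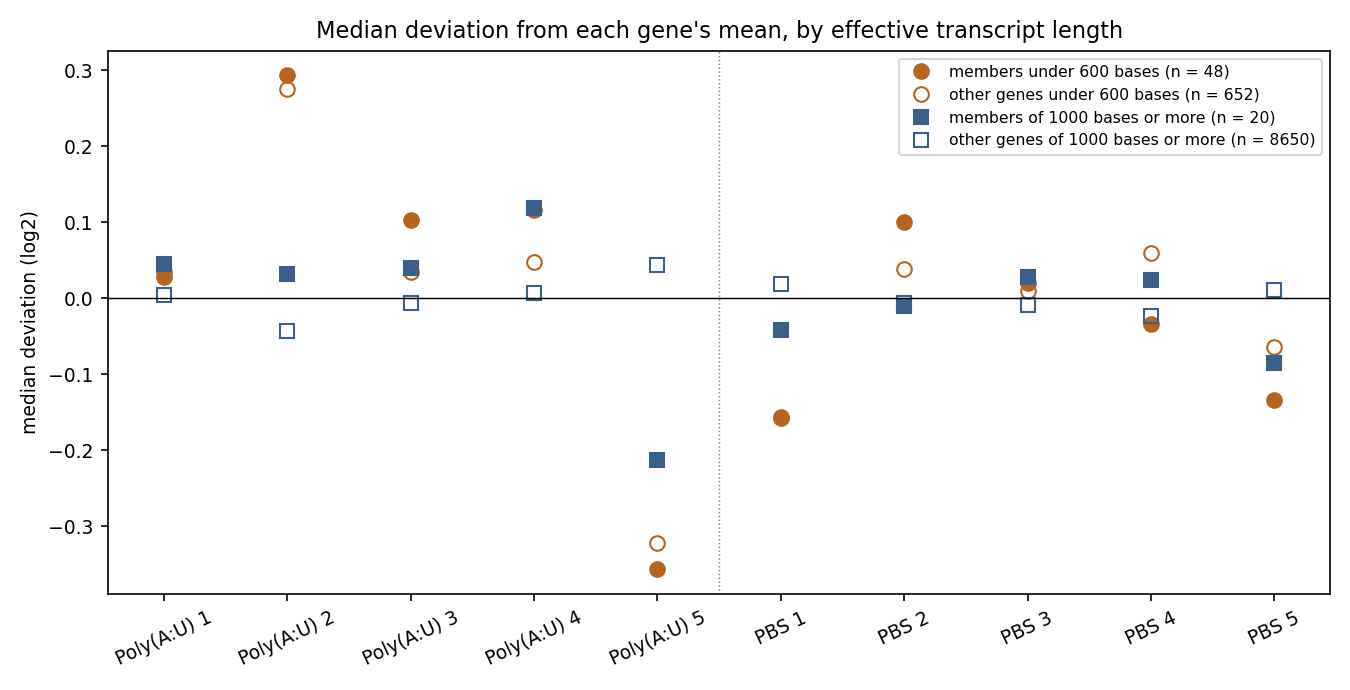
Median deviation of log2 CPM from each gene's mean over the 10 libraries, per library, for list members (filled) and other genes (open) under 600 bases (circles) and of 1000 bases or more (squares) in effective length. Short genes, members or not, share low values in Poly(A:U) 5 (-0.36 and -0.32) and PBS 1 (-0.16 for both) and high values in Poly(A:U) 2 (0.29 and 0.28), while the other long genes stay near 0. In some other libraries the short members and other short genes lie further apart, such as Poly(A:U) 4 (0.12 and 0.05) and PBS 4 (-0.03 and 0.06).

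The counts by direction rest on these libraries. Without Poly(A:U) 5, 81 of 88 log2 fold changes were positive (background 48.1%) with a median of 0.14. At an unadjusted p under 0.05 in edgeR's test there were then 23 of the 88, all with a positive value (background 4.4%), and 0 were called after adjustment (background 0%, smallest adjusted p of a member 0.465). Without Poly(A:U) 5 and PBS 4 together, 82 of 88 were positive (background 54.1%) with a median of 0.16. There were then 29 with an unadjusted p under 0.05, all positive (background 9.53%), and 0 were called after adjustment (background 0%, smallest adjusted p of a member 0.114 in edgeR's test). Without Poly(A:U) 2, 47 of 88 were positive (background 46.6%) with a median of 0.01. Of the 88, 0 then had an unadjusted p under 0.05 in edgeR's test, against 768 of all 13922 genes tested. With the trend of each library on transcript length removed, 53 of 88 were positive, against 45.6% of all genes tested, and the median was 0.01.

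Between libraries of the 2 groups whose names share a part, the 2 differences ran in opposite directions. The 95 genes summed to 8950 CPM in Poly(A:U) 5, against 10328 CPM in PBS 4, and on the scale of log2 CPM with TMM factors 3 of the 88 tested members were higher in Poly(A:U) 5 (49.3% of all genes tested), with a median difference of -0.30. Their sum was 10561 CPM in Poly(A:U) 1, against 9640 CPM in PBS 5, and 81 of the 88 were higher in Poly(A:U) 1 (50.5% of all genes tested), with a median difference of 0.16. With 1 library of each group, neither difference has a replicate check. A fit with the shared part of the name as a block, in which only these 4 libraries set the fold change, gave 18 of 88 positive values (background 49.2%), a median of -0.08 and 0 called in edgeR's test (background 0%, smallest adjusted p of a member 0.804). The direction over the list was thus not the same with and without that block.

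The spread of the members over the 10 libraries was near that of other well expressed genes. The median SD of log2 CPM was 0.18 for the tested members, against 0.23 for all genes tested and 0.18 for those averaging 10 CPM or more. Among the steadiest were Atp5a1 (SD 0.06), Uqcrc2 (0.08) and Uqcrfs1 (0.10), which are core subunits of their complexes. In complex I the core subunits were not steadier, with a median SD of 0.19, against 0.18 for the accessory subunits. By the split on effective length, the long members had a median SD of 0.14 and the short members 0.21. Whether role or length bears on the spread was not tested. The most variable were Cox7a1 (0.64), Cox6b2 (0.39) and Atp5s (0.38), the 3 genes of the lowest level.

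Several symbols mix coding and other transcripts. For 43 of the 88 genes a single transcript held more than 90% of the TPM, and for 7 genes more than 50% lay in transcripts not annotated as protein-coding. These were Ndufs4 (86.1%), Ndufa5 (80.1%), Ndufaf4 (68.3%), Ndufab1 (65.2%), Atp5f1 (63.0%), Ndufa10 (56.5%) and Ndufa3 (51.9%). In each of them the group means of this share differed by less than 5 percentage points, for example 85.8% in Poly(A:U) and 86.5% in PBS libraries for Ndufs4, an accessory subunit whose loss causes Leigh-like disease in mice.

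Other genes of the pathway were looked at from lists, and none of them was called in edgeR's test (background 0%). Of all genes tested, 49.4% had a positive log2 fold change. Of 40 assembly factors beyond the Ndufaf genes, 29 had a positive log2 fold change (median 0.05) and 4 an unadjusted p under 0.05 (background 7.3%), of which Tmem70 was positive and Uqcc1, Cox10 and Acad9 were negative. Tmem70, an assembly factor of complex V, had 26.8 to 32.2 CPM in Poly(A:U) and 20.3 to 25.8 CPM in PBS libraries (0.24 ± 0.09, edgeR adjusted p = 0.677). Its groups did not overlap, as in 0.779% of all genes tested in this direction, and it was named for its small unadjusted p. Uqcc1, an assembly factor of complex III, had 23.3 to 31.3 and 29.8 to 35.8 CPM (-0.25 ± 0.09, edgeR adjusted p = 0.677). Of 14 tested genes of cytochrome c and ubiquinone synthesis 6 were positive (median -0.05). Cycs, the cytochrome c gene, had 59.2 ± 9.06 CPM in Poly(A:U) and 52.5 ± 4.49 CPM in PBS libraries (0.15 ± 0.11).

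Of 20 citric acid cycle genes 2 had a positive log2 fold change (median -0.06), against 49.4% of all genes tested. Values were -0.19 ± 0.10 for Dlat and -0.17 ± 0.10 for Sucla2, the members of that list with the smallest unadjusted p. The median effective length was 1866 bases in that list and 547 bases for the tested oxidative phosphorylation genes, and the part of length was not tested. Among 14 tested regulators of mitochondrial biogenesis 6 were positive (median -0.02). An unadjusted p under 0.05 was found for 3 of them (background 7.3%), of which Tfam was positive and Nrf1 and Polrmt were negative. Polrmt, the mitochondrial RNA polymerase, gave -0.21 ± 0.08 (unadjusted p = 0.0216, adjusted p = 0.677 in edgeR's test). Tfam, a factor that packages mitochondrial DNA and takes part in its transcription, had 69.3, 62.4, 70.3, 73.8 and 73.0 CPM in Poly(A:U) libraries. It had 54.5, 58.9, 59.1, 56.8 and 58.5 CPM in PBS libraries. All 5 Poly(A:U) libraries lay above all PBS libraries, Poly(A:U) 5 included, a separation seen in this direction in 0.779% of all genes tested, and the log2 fold change was 0.25 ± 0.06 (unadjusted p = 0.00215, adjusted p = 0.677 in edgeR's test). Nrf1, a factor that binds many promoters of respiratory chain genes, had 82.9, 72.9, 86.8, 83.0 and 89.9 CPM in Poly(A:U) and 104, 101, 92.3, 87.7 and 90.02 CPM in PBS libraries, overlapping groups, and -0.22 ± 0.07 (unadjusted p = 0.00894, adjusted p = 0.677). With limma voom and quality weights, Tfam (adjusted p = 0.0325), Nrf1 (0.0378) and Uqcc1 (0.0467) passed the threshold among the 24 genes named by rule. The background of that test was 6.34%.

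The mitochondrial genome's own coding genes gave 6 positive log2 fold changes of 13 (median -0.01), against 49.4% of all genes tested. The ratio of the summed nuclear genes to the summed mitochondrial coding genes, both in CPM, was 0.278, 0.207, 0.274, 0.406 and 0.310 in the Poly(A:U) libraries and 0.297, 0.243, 0.252, 0.320 and 0.264 in the PBS libraries. The Poly(A:U) libraries thus held both the lowest and the highest ratio of the 10.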

How the data were processed

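RNA-seq libraries of 10 pups (5 Poly(A:U), 5 PBS) were used. The authors deposited estimated counts, TPM and effective lengths per transcript, per the file headers, and a table of normalized signal (named as CPM) for 13699 genes. The submitters' processing notes list mm10 as the build and, as tools, DRAGEN and edgeR 3.38.4. For settings, annotation and strand use the sources used here state nothing, so reads of overlapping, antisense and near-identical genes cannot be told apart.

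Counts of 142333 transcripts were summed per gene with GENCODE M21 (538 transcripts, 0.0460% to 0.0695% of reads, had no gene), rounded and scaled to CPM. The log2 CPM of 13690 shared genes correlated with the authors' deposited signal at r = 0.997 or more in every library, across genes that are not independent replicates. edgeR 4.0.16 (R 4.3.3) compared the groups with filterByExpr (minimum count 10; 13729 genes), TMM factors and its robust quasi-likelihood test, treatment as the only term. Tests are two-sided with Benjamini-Hochberg adjustment over all genes and a threshold of 0.05. The test was tried first on simulated counts. Standard errors come from the F statistic. Precision is set by the spread between pups and, in low genes, by counting error. Alternatives were DESeq2 1.42.0, limma 3.58.1 voom with quality weights, other factors and filters, a replicate block, libraries left out, other units and, chosen after seeing the data, a length correction, TPM over protein-coding transcripts and a block for the part of the name that libraries share.

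Members and lists were chosen with earlier results of these data known, so no test was made over a list. Genes were named by rule: the 2 tested members of each class with the smallest unadjusted p, the highest and lowest per class, all core complex I and complex II genes, isoform families, and the 2 with the smallest unadjusted p in each further list, and of each marker list the 2 of highest level, which are given here as sums. Any further gene was picked with its values in view. 1 gene that the rule names is not reported here.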

Additional observations from a re-analysis of the deposited data

Results flagged for a closer look

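In groups of 5 libraries, a value was singled out where its gap to the nearest other library took more than 0.71 of the range of the group (Dixon's 95% value), which chance gives in about 1 in 20 groups. Of 108 groups looked at, 9 values were singled out, of which 4 were in Poly(A:U) 5, 3 in PBS 4 and 2 in PBS 2.

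In Poly(A:U) 5 the summed complex III genes had 906 CPM, with the nearest Poly(A:U) library at 1115 CPM. In the same library Ndufc2 had 52.1 CPM (nearest 65.4 CPM), Atp5s 3.10 CPM (nearest 4.20 CPM) and Coq2, an enzyme of ubiquinone synthesis, 25.7 CPM (nearest 28.8 CPM). In PBS 4 Ndufv1 had 108 CPM (nearest 78.6 CPM), Atp5b 1242 CPM (nearest 1057 CPM) and Atp5g3 284 CPM (nearest 217 CPM). In PBS 2 Ndufc2 had 61.1 CPM (nearest 56.1 CPM) and Cox7a1 2.58 CPM (nearest 1.56 CPM). No cause of these values was tested.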

How the results depend on the processing

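No member was called under any of the 21 alternatives. The median log2 fold change of the tested members ran from 0.01 to 0.14 with 1 library left out, and was 0.16 without Poly(A:U) 5 and PBS 4 together and 0.05 with the replicate block. Same-numbered libraries did not deviate together (r from -0.18 to 0.14), so the numbers were not taken as pairs, and the replicate block called 0 members. Poly(A:U) 5 and PBS 4, whose names share a part, gave r = 0.37, the highest of any pair across the groups. Poly(A:U) 1 and PBS 5, whose names share another part, gave r = 0.12. Of 501 alternatives for 24 named genes, 486 kept direction and side of the threshold and 3 passed it, the limma voom calls of Tfam, Nrf1 and Uqcc1. With 1 library left out, Ndufv1 ran from -0.17 to 0.012 and Ndufs1 from -0.10 to 0.012. Without PBS 4 and Poly(A:U) 5 together Ndufv1 gave 0.057, and without PBS 1, 2 and 3, whose library names share a start, the median was 0.10, Ndufs1 gave 0.055 and mt-Nd6 0.67, against -0.52 with all libraries. With the shared part of the library names as a block, an alternative chosen after seeing the data, the median over all members was -0.08, and it was -0.21 for complex I core, -0.12 for complex IV and -0.069 for complex V. Under it 6 genes changed sign, Ndufs1 (0.012), Sdhc (-0.022), Sdha (0.040), Uqcrq (-0.14), Cox6c (-0.0057) and mt-Nd6 (0.23). Levels depended on the unit. Median CPM per kilobase was 149 for complex I core, 115 for accessory, 119 for complex II, 216 for III, 322 for IV, 278 for V and 159 for all. Median TPM over protein-coding transcripts was 103 for core, 135 for accessory, 14.4 for assembly factors, 344 for complex IV, 336 for complex V and 149 for all. In this measure complexes IV and V were close, within the SD of either median over the libraries (26.0 and 29.8 TPM). In CPM the isoform shares were 0.328% for Cox7a1, 22.6% for Cox7a2, 77.1% for Cox7a2l and 13.2% for Atp5g1, and the cause was not tested. Members below about 10 CPM, such as Atp5s, Cox6b2 and Cox7a1, are limited by depth.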
